A study of Mus musculus with 8 samples.

Results

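The 40 genes described here act in mitosis: cyclins and their kinase, mitotic kinases, kinetochore and centromere proteins, the spindle checkpoint, spindle motors, cytokinesis factors and a few chromosome proteins. They were chosen by name as a module, and every noncontrol array probe whose transcript accession maps to one of them was taken, which gave 57 of the 41174 noncontrol probes. All 40 genes were among the 22345 genes tested, where a probe with no symbol counts as a gene of its own. RNA came from dental epithelia of mouse incisors, 4 samples labelled WT and 4 from mice homozygous null for Bmi1, which encodes a Polycomb repressive protein. Both groups were on a mixed genetic background. The incisors were digested whole with accumax, the epithelium was pulled off the mesenchyme by mechanical means, and each sample was hybridised to 1 single-colour array. Age, sex, the construction of the null allele and whether animals were pooled are not given in the sources used here, so a p-value here rests on the variation among these 8 samples, part of which may be technical.

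In mitosis, cyclin B bound to Cdk1 drives cells past the G2 boundary, chromosomes attach to spindle microtubules through kinetochores, and a checkpoint holds back the anaphase-promoting complex until every chromosome is attached. The genes for these proteins are transcribed mainly in G2 and M. Their RNA in a tissue can therefore vary with the number of cells in those phases. Rodent incisors never stop growing, and their epithelium holds dividing transit-amplifying cells near the cervical loop beside non-dividing ameloblasts. In bulk RNA, fewer cells of a type and less RNA per cell cannot be told apart.

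Many mitotic promoters carry CCAAT boxes, which bind NF-Y, and a cell-cycle homology region (CHR), which binds the MuvB complexes that time G2 and M transcription. RefSeq promoter windows (assembly GRCm38.p6, from 250 bases before to 50 after the start) were held for 32 of the 40 genes; none was held for Aurkb, Ccna2, Cdc25c, Dlgap5, Foxm1, Kif20a, Pbk or Tpx2. Windows of 8 genes are printed, each the 110 bases just before the start, to show the CCAAT boxes, which began there in 23 of the 32, and the CHRs of those genes where one lies in this stretch. A CHR began in the 110 bases before the start in 8 of the 32 genes and at or after the start in 16. Letters run 5′ to 3′ on the gene's strand, and capitals mark CCAAT or its reverse complement ATTGG, and TTTGAA or its reverse complement TTCAAA.
Spc25: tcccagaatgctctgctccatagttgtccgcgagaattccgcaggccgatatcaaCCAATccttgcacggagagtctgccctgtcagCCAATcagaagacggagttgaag
Ccnb1: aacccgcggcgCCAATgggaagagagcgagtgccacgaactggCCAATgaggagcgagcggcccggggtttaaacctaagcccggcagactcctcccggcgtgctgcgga
Ccnb2: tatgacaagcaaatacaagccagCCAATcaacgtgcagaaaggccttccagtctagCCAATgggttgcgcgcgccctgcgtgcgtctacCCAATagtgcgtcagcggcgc
Cdk1: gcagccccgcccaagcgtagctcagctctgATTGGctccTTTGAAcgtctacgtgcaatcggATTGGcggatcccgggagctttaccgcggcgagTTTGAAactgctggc
Cdc20: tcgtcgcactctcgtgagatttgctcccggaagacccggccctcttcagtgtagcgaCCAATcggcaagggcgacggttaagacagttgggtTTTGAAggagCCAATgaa
Ube2c: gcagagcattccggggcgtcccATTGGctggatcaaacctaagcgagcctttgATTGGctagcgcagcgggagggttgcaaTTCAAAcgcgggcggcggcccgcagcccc
Kif11: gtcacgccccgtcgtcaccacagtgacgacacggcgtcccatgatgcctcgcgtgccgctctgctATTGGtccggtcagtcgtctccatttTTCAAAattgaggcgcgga
Top2a: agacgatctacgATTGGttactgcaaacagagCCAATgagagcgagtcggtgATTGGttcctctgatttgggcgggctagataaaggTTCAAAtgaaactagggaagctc

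The Spc25 window (chr2:69206214-69206323, minus strand) belongs to the gene with the largest difference among the 40. It holds CCAAT boxes starting 55 and 23 bases before the start, and its CHR lies 24 bases past the start, outside the printed stretch. Ccnb1 (chr13:100786487-100786596, minus strand) and Ccnb2 (chr9:70421555-70421664, minus strand), the B-type cyclins, show CCAAT boxes at even steps. Those of Ccnb1 begin 99 and 67 bases before the start, and those of Ccnb2 begin 87, 54 and 21 bases before it. No CHR letters were found in the Ccnb1 window, whereas Ccnb2 has one 167 bases before and one 4 bases after the start. Cdk1 (chr10:69352913-69353022, minus strand), Cdc20 (chr4:118437344-118437453, minus strand), Ube2c (chr2:164769819-164769928, plus strand), Kif11 (chr19:37376272-37376381, plus strand) and Top2a (chr11:99024190-99024299, minus strand) each have a CHR in the printed stretch. It begins 18 bases before the start in Cdc20, 29 in Ube2c, 19 in Kif11 and 23 in Top2a, and Cdk1 has one at 71 and another at 15.

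Searched on both strands over the whole window, CHR letters stood in 24 of the 32 promoters (75%), against 18.1% of all 27025 genes' windows in the RefSeq table and 12.2% of the 11017 that belong to other tested genes (the first window listed was taken for a gene with several). A CCAAT box stood in 25 of 32 (78.1%), against 37.9% of all windows. Both motifs together stood in 21 of 32 (65.6%), against 7.12% of all windows and 4.99% of those of tested genes. At least 2 CCAAT boxes were found in 18 of 32 (56.2%), against 12.2% of all windows. Adjacent boxes in 1 promoter began a median of 33 bases apart over 36 gaps. A CHR overlapped a CCAAT box once, in Cdca8, and a pair of CCAAT boxes on opposite strands overlapped in Ube2c, beginning 3 bases apart. In the window, 4 genes (Birc5, Melk, Nuf2 and Nusap1) had neither. These are matches of letters and not measured binding, and no match says only that the letters are not in this window.

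**Figure D1:**
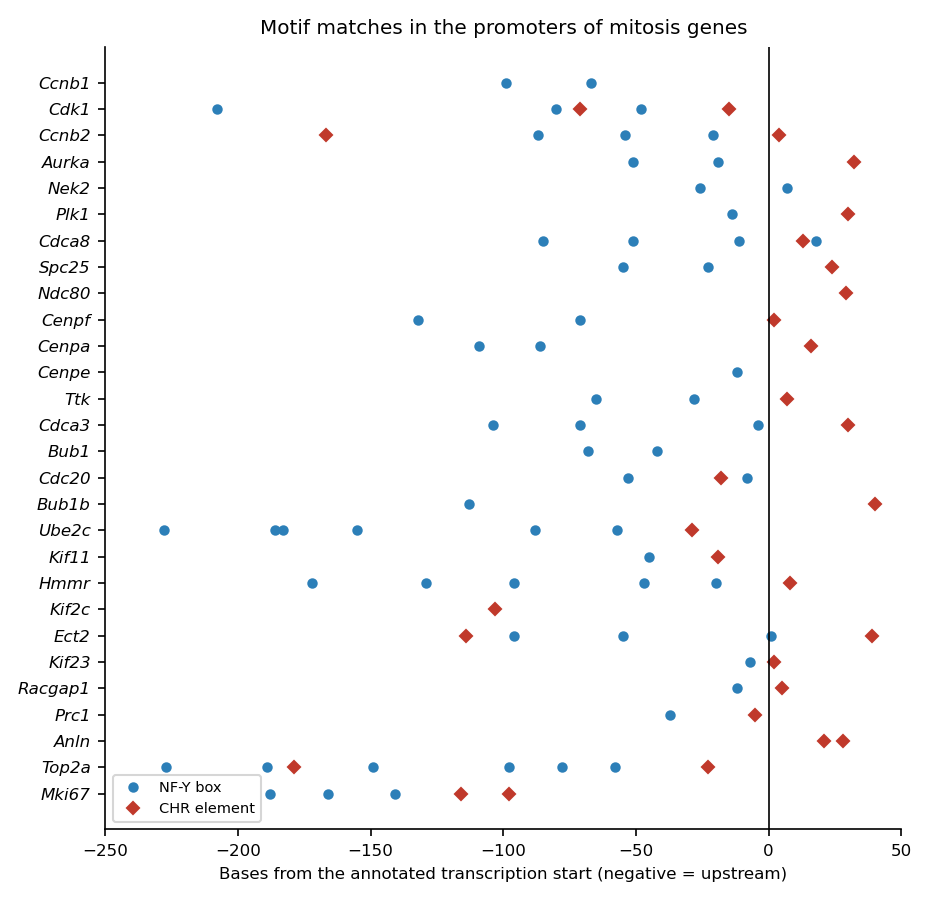
Position of CCAAT boxes (circles, labelled NF-Y box) and CHR letters (diamonds) in the promoter windows of the members with a match, in bases from the annotated transcription start (x axis), with 1 gene per line. Of 91 matches, 72 start within the 110 bases before the start or after it.

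Probe signals are given as log2 of the background-corrected signal minus the array's 75th percentile, so 0 is the level of that percentile, and levels are compared between arrays for 1 probe, not between probes. A gene is represented by its probe with the highest mean. All 40 were well above background on all 8 arrays. The genotype showed in the targeted gene: Bmi1 was at 1.22 ± 0.05 (SD, n = 4) in WT and -1.60 ± 0.89 (n = 4) in null samples, 7.07-fold lower (limma adjusted p = 0.0309), and above background on all 8 arrays. Bmi1 passed 5% false discovery rate in 9 of 21 alternatives, with log2 fold changes from -3.71 to -2.37. Its limma adjusted p was 0.184 with the filter on all arrays and 0.753 on slide 1 alone. Leaving out any array but null replicate 1 gave 0.0579 to 0.157. Its second probe had a log2 fold change of -4.60 (limma over every probe, adjusted p = 0.104). Cdkn2a, the cell-cycle inhibitor locus that Bmi1 represses, was above background on 0 WT and 4 null arrays and at least 11.3-fold higher in null samples (limma adjusted p = 0.00408). It entered the test only through the null arrays, where it was high, and its adjusted p was 0.241 with normexp, 0.276 with the authors' value table and 0.753 on slide 1 alone. The bound sets the null mean against, for each WT array, the higher of its lowest signal well above background and the probe's own. WT arrays had 71.4% ± 2.10 (SD, n = 4) of their probes well above background and null arrays 66.4% ± 1.64 (two-sided exact permutation p = 0.0286, the smallest that 4 against 4 allows). The 75th percentile of the signal was 1178 ± 539 in WT and 604 ± 183 in null arrays (two-sided exact permutation p = 0.0857). The lowest signal well above background, in log2 relative to that percentile, was -6.80 ± 0.37 and -6.12 ± 0.34 (two-sided exact permutation p = 0.0571). The part of these differences in the results was not tested. The arrays lay on 2 slides with 2 WT and 2 null arrays each, slide 1 holding WT replicates 1 and 4 and null replicates 1 and 2.

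All 40 mitosis genes had a lower mean in Bmi1 null than in WT epithelium, although 4 of them (Ttk, Dlgap5, Hmmr and Anln) had a higher one with normexp background correction, which moved the median of all genes to 0.17 and that of the members to -0.41. The median log2 fold change, null minus WT, was -0.51, a 1.43-fold lower level, and the fold changes ran from -1.10 for Spc25 to -0.21 for Melk. Over all genes tested, the median was 0.01 and 48.6% were negative. No member passed 5% false discovery rate in limma, where 0.0492% of all genes did (11 of 22345, of which 9 were higher and 2, or 0.00895%, lower in null). With quantile normalization 9 were higher and 4 lower. At an unadjusted p under 0.05, 6 of the 40 (15%) were lower and 0 higher, against 2.16% of all genes lower and 4.2% higher. The members' count depended on the processing. Counted in either direction, 6 members and 1420 of all genes were under 0.05, but 3 and 3550 with normexp. With normexp the members' share in either direction was thus below that of all genes. Those 3 members were all lower. How many of the 3550 were lower is not given here, so the excess among lower genes cannot be judged there. The counts were 4 and 6268 with no filter, which admits more genes, and 6 and 2977 with array weights. They were 6 and 1350 with quantile normalization and 3 and 1445 with detected-probe scaling. Adjusted p-values of members ran from 0.597 to 0.883, with a median standard error of 0.32. WT and null samples did not overlap, with WT above, for 1 member, Spc25, and for 1.26% of all genes; in either direction it was 3.08% of all genes. A log2 fold change under -0.5 was found in 23 of the 40, against 9.29% of all genes.

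**Figure D2:**
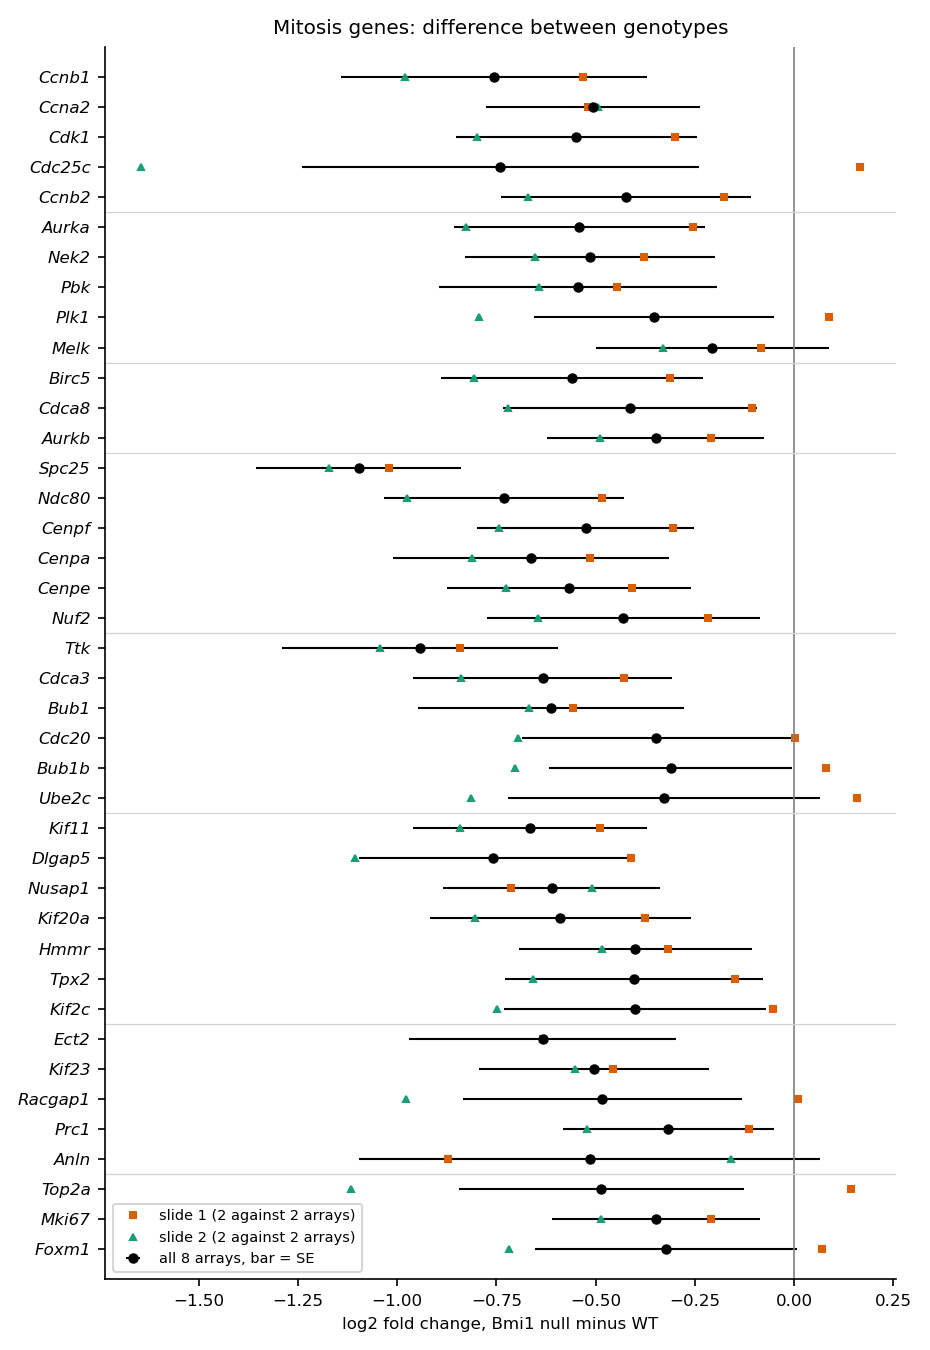
Log2 fold change (Bmi1 null minus WT, x axis) of each of the 40 genes, by role, with its standard error from limma (n = 4 per group) and the value within each slide. All 40 black points lie left of 0, from -1.10 to -0.21; with normexp 4 of them lie right of it. On slide 1 alone 8 genes lie right of 0.

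The spread among WT samples was wide, and the size of the difference depended on which WT arrays entered. Averaged over the 40 genes and set against the WT mean, the WT arrays stood at 0.35, 0.62, -0.41 and -0.56 in replicates 1 to 4. The null arrays stood at -0.49, -0.33, -0.74 and -0.55. WT replicates 1 and 2 were thus above all null arrays, while WT replicates 3 and 4 lay within the range of the null arrays. WT replicates 1 and 2 lay above every null array for 36 and 37 of the 40 genes, and WT replicates 3 and 4 did so for 7 and 1. WT replicate 2 was the highest of all 8 arrays for 32 genes. Null replicates were the lowest array for 13, 2, 13 and 7 genes in turn. The pair of high WT arrays lay on different slides, as did the pair of low ones.

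The median log2 fold change without WT replicate 2 was -0.29, with 39 of 40 negative, and without WT replicate 1 it was -0.40. Without WT replicate 3 it was -0.67 and without WT replicate 4 it was -0.71. The number of members lower at an unadjusted p under 0.05 was then 1 without WT replicate 1, 1 without WT replicate 2, 14 without WT replicate 3 and 19 without WT replicate 4. In the same order, 1160, 1567, 938 and 832 of all 22345 genes were under 0.05 in either direction. Without WT replicate 1 or 2 the members' share in either direction was thus below that of all genes. The share of all genes that were lower in these fits is not given here. Within slide 1 the median was -0.31, with 32 of 40 genes negative. Within slide 2 it was -0.72, with 40 of 40 negative. By role, the medians given next ran from -0.39 to -0.12 without WT replicate 2. The mitotic kinases had -0.33 without WT replicate 1, the chromosomal passenger complex -0.64 without WT replicate 3 and the cytokinesis genes -0.29 without null replicate 3. On slide 1 alone the last group, of chromosome and transcription genes, had 0.07.

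**Figure D3:**
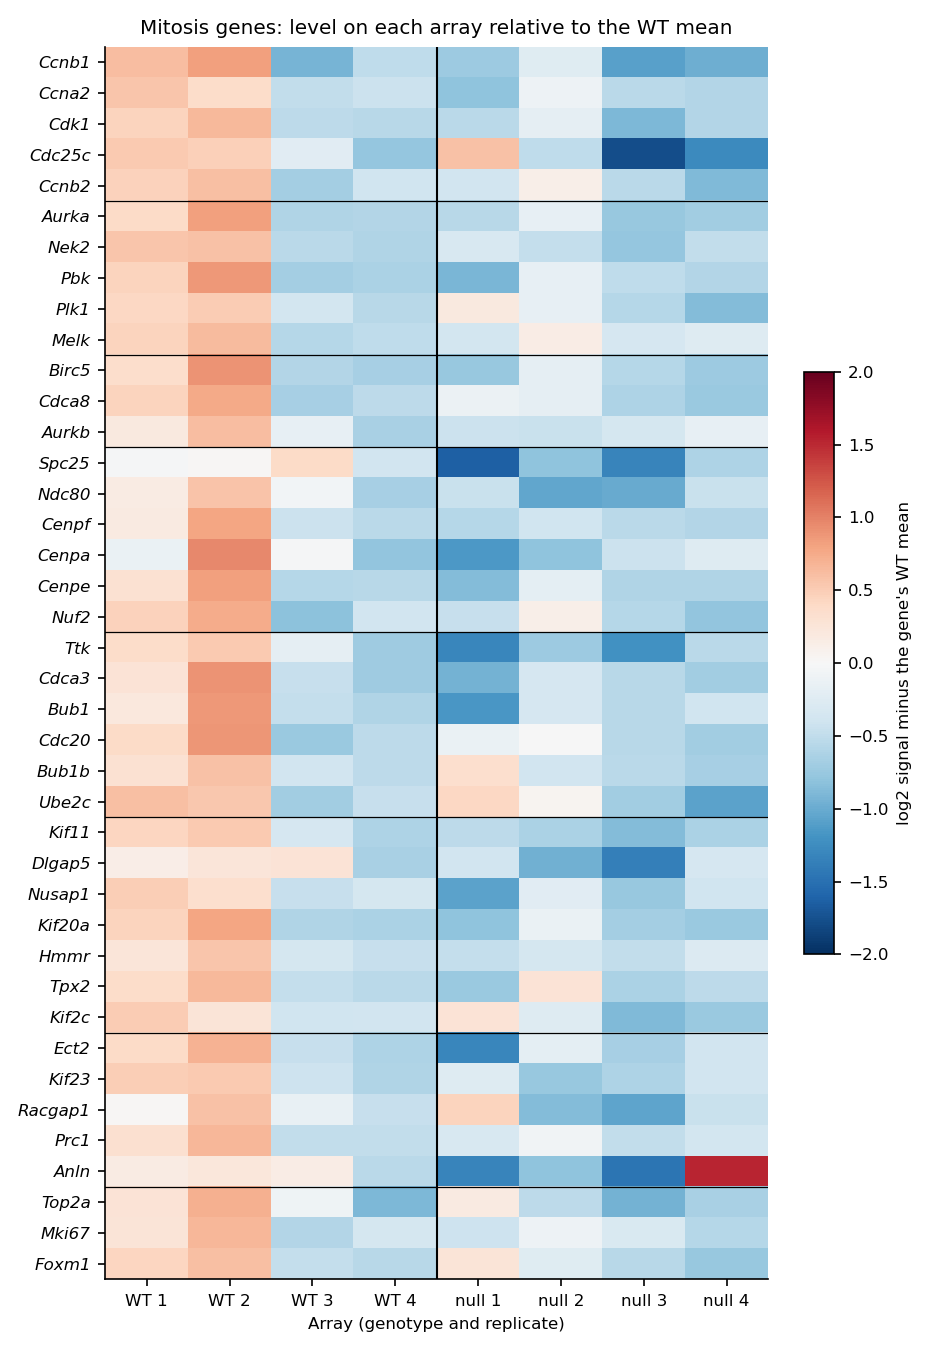
Level of each of the 40 genes on each of the 8 arrays, in log2 units relative to that gene's WT mean, with the genes ordered by role. WT replicates 1 and 2 stand high across nearly all genes, and WT replicates 3 and 4 resemble the null arrays.

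The standard deviation was larger among WT than among null samples for 33 of the 40 genes, against 27.7% of all genes. Its median over the members was 0.62 in WT and 0.36 in null samples, and over all genes 0.29 and 0.44. Cenpf, which builds the outer kinetochore, had an SD of 0.62 in WT and 0.09 in null samples. Hmmr, a spindle-associated protein, had 0.48 and 0.11. Aurkb, the kinase of the chromosomal passenger complex, had 0.54 and 0.13. The genes with the larger spread among null samples included Anln (0.36 in WT, 1.39 in null) and Cdc25c (0.62 and 1.03). These genes were named here after their values were seen, and no test of the spread was run.

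**Figure D4:**
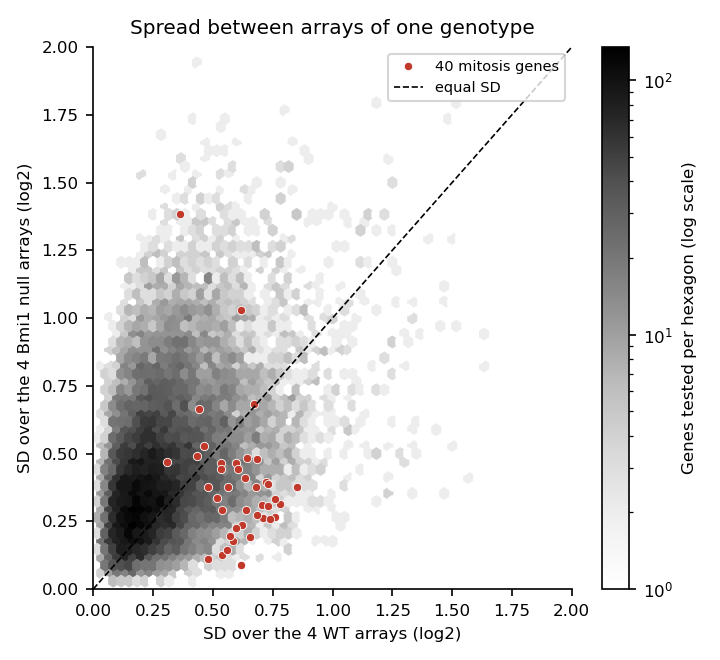
Standard deviation over the 4 null arrays (y axis) against that over the 4 WT arrays (x axis), in log2 units, for each of the 40 genes (red) and, as grey hexagons shaded by their number, all genes tested, on axes that end at 2. Of the 40, 33 lie below the diagonal of equal spread.

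Among the 6 kinetochore and centromere genes the median log2 fold change was -0.61 (range -1.10 to -0.43), and 2 had an unadjusted p under 0.05. Spc25, a subunit of the Ndc80 complex that grips microtubules, was at 1.22, 1.26, 1.61 and 0.85 in WT replicates 1 to 4 and at -0.40, 0.43, -0.08 and 0.62 in null replicates 1 to 4. Every WT sample was above every null sample. The log2 fold change was -1.10 ± 0.26 (SE), 2.14-fold lower (limma adjusted p = 0.597). It was -1.02 on slide 1 and -1.17 on slide 2, and between -1.26 and -0.92 when any 1 array was left out. Unlike most members, Spc25 was highest in WT replicate 3, and its SD was smaller in WT (0.31) than in null samples (0.47).

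Ndc80, which gives that complex its name, was at -1.58, -1.18, -1.81 and -2.42 in WT and at -2.18, -2.78, -2.75 and -2.18 in null samples. Only WT replicate 4 lay within the null range. Its log2 fold change was -0.73 ± 0.30 (limma adjusted p = 0.769). The remaining subunit among the members, Nuf2, had -0.43 ± 0.34. Cenpa, the histone H3 variant that marks centromeres, was at 0.54, 1.64, 0.65 and -0.11 in WT and at -0.47, -0.13, 0.25 and 0.42 in null samples. WT replicate 4 again fell among the null samples, and the log2 fold change was -0.66 ± 0.35 (limma adjusted p = 0.79). Cenpf was at 2.45, 3.05, 1.82 and 1.71 in WT and at 1.68, 1.86, 1.71 and 1.67 in null samples, with a log2 fold change of -0.52 ± 0.27 (limma adjusted p = 0.79). Its difference thus came from WT replicates 1 and 2, since the other 6 arrays lay between 1.67 and 1.86. Cenpe, a kinesin that carries chromosomes to the spindle equator, was at 3.76, 4.28, 2.89 and 2.90 in WT and at 2.59, 3.25, 2.85 and 2.86 in null samples, with a log2 fold change of -0.57 ± 0.31. Null replicate 2 lay above WT replicates 3 and 4 there.

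The cyclins, Cdk1 and the phosphatase Cdc25c that activates it had a median log2 fold change of -0.55 over 5 genes (range -0.76 to -0.42), with 0 at an unadjusted p under 0.05. Ccnb1, cyclin B1, was at 0.95, 1.15, -0.59 and -0.19 in WT and at -0.39, 0.09, -0.76 and -0.65 in null samples. WT replicates 1 and 2 stood apart from the other 6 arrays, and the log2 fold change was -0.76 ± 0.39 (limma adjusted p = 0.79). Ccna2, cyclin A2, which acts from S phase into early mitosis, was at 3.06, 2.86, 2.003 and 2.07 in WT and at 1.70, 2.40, 1.96 and 1.92 in null samples. Null replicate 2 was above WT replicates 3 and 4, and the log2 fold change was -0.51 ± 0.27 (limma adjusted p = 0.79). Cdk1, the kinase that these cyclins activate in mitosis, was at 1.46, 1.66, 0.48 and 0.45 in WT and at 0.48, 0.83, 0.12 and 0.42 in null samples, with -0.55 ± 0.30. Ccnb2 had -0.42 ± 0.32. Cdc25c was at -2.04, -2.09, -2.79 and -3.33 in WT and at -1.97, -3.07, -4.33 and -3.84 in null samples, with a log2 fold change of -0.74 ± 0.50. Null replicate 1 was the highest of all 8 arrays there, and the fold change was 0.17 on slide 1 and -1.65 on slide 2. On its second probe, above background on 4 WT and 3 null arrays, the log2 fold change was -0.89. Null replicate 1 was not the highest array there.

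In the spindle checkpoint and anaphase-promoting complex group, the median log2 fold change over 6 genes was -0.48 (range -0.94 to -0.31), and 1 gene had an unadjusted p under 0.05. Ttk, the kinase Mps1 that starts checkpoint signalling, was at -3.37, -3.21, -3.92 and -4.45 in WT and at -5.04, -4.46, -4.95 and -4.27 in null samples. WT replicate 4 lay within the null range, and the log2 fold change was -0.94 ± 0.35 (limma adjusted p = 0.769); with normexp background correction it was 0.08. Cdca3, which takes part in the breakdown of a mitotic inhibitor, was at 2.33, 2.96, 1.58 and 1.33 in WT and at 1.097, 1.71, 1.5 and 1.36 in null samples. Its log2 fold change was -0.63 ± 0.33 (limma adjusted p = 0.79), and WT replicates 3 and 4 lay within the null range. Cdc20, the activator of the anaphase-promoting complex, had -0.35 ± 0.34, and Ube2c, the ubiquitin-conjugating enzyme that works with it, had -0.33 ± 0.39. Ube2c was at 1.36, 1.30, 0.06 and 0.30 in WT and at 1.17, 0.81, 0.05 and -0.32 in null samples, so that both genotypes held high and low arrays. Bub1b, the checkpoint protein BubR1, had -0.31 ± 0.31.

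Bub1, a checkpoint kinase at the kinetochore, was the only member whose measurable probes differed in sign. The probe with the highest mean was at 0.25, 0.90, -0.44 and -0.56 in WT and at -1.12, -0.29, -0.51 and -0.36 in null samples, a log2 fold change of -0.61 ± 0.34. The other probe, assigned to a different RefSeq transcript record, was at -2.52, -1.08, -2.09 and -2.39 in WT and at -1.67, -1.67, -1.02 and -1.92 in null samples. That probe's log2 fold change was 0.45 ± 0.34 (limma over every probe, adjusted p = 0.821). WT replicate 2 was the highest WT array on both, while null replicate 3 was the highest of all arrays on the second.

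The 7 spindle motors and microtubule proteins had a median log2 fold change of -0.59 (range -0.76 to -0.40), with 3 at an unadjusted p under 0.05. Kif11, the kinesin that pushes spindle poles apart, was at -1.67, -1.57, -2.42 and -2.70 in WT and at -2.62, -2.72, -2.96 and -2.72 in null samples. The null samples lay close together, WT replicate 4 fell among them, and the log2 fold change was -0.67 ± 0.29 (limma adjusted p = 0.782). Dlgap5, a spindle protein also called HURP, was at -3.48, -3.37, -3.35 and -4.26 in WT and at -3.99, -4.57, -4.97 and -3.95 in null samples. WT replicate 4 stood far below the other WT samples, and the log2 fold change was -0.76 ± 0.34 (limma adjusted p = 0.782); with normexp it was 0.05. Nusap1, which bundles spindle microtubules, was at 1.53, 1.37, 0.57 and 0.68 in WT and at -0.03, 0.81, 0.28 and 0.64 in null samples. The log2 fold change was -0.61 ± 0.27 (limma adjusted p = 0.783), and null replicates 2 and 4 overlapped WT replicates 3 and 4. Kif20a, a cytokinesis kinesin, had -0.59 ± 0.33, Tpx2, which activates Aurora A on the spindle, had -0.40 ± 0.33, and Kif2c, a microtubule-depolymerising kinesin, had -0.40 ± 0.33. Hmmr had -0.40 ± 0.29, and 0.21 with normexp.

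The 5 central spindle and cytokinesis genes had a median log2 fold change of -0.50 (range -0.63 to -0.32). Ect2, which switches on RhoA at the cleavage site, was at 1.85, 2.16, 0.99 and 0.84 in WT and at 0.16, 1.27, 0.80 and 1.08 in null samples. Its log2 fold change was -0.63 ± 0.34 (limma adjusted p = 0.79), with WT replicates 3 and 4 within the null range. Kif23 and Racgap1, the partners of the centralspindlin complex, had -0.50 ± 0.29 and -0.48 ± 0.35, and Prc1, which bundles midzone microtubules, had -0.32 ± 0.27. Anln, the contractile-ring protein anillin, was at -2.26, -2.19, -2.28 and -2.96 in WT and at -3.75, -3.22, -3.89 and -0.91 in null samples. Null replicate 4 was the highest of all 8 arrays there and the other null samples were the lowest, and the log2 fold change was -0.52 ± 0.58, or 0.09 with normexp. Without null replicate 4 it was -1.19. On the second Anln probe, above background on 4 WT and 2 null arrays, the fold change was -0.11.

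The 5 mitotic kinases had a median log2 fold change of -0.51 (range -0.54 to -0.21). Aurka, which matures the spindle poles, was at 3.33, 3.77, 2.35 and 2.36 in WT and at 2.40, 2.78, 2.20 and 2.26 in null samples, with -0.54 ± 0.32. WT replicates 1 and 2 were above all null arrays, and the other WT arrays lay within the null range. Pbk had -0.54 ± 0.35, Nek2, a centrosome kinase, had -0.51 ± 0.31 and Plk1, a kinase that acts throughout mitosis, had -0.35 ± 0.30. Melk had -0.21 ± 0.29, the smallest difference of the 40 in the comparison of all 8 arrays. The 3 members of the chromosomal passenger complex had fold changes of -0.56 ± 0.33 for Birc5 (survivin), -0.41 ± 0.32 for Cdca8 (borealin) and -0.35 ± 0.27 for Aurkb. Birc5 was at 4.20, 4.76, 3.27 and 3.19 in WT and at 3.09, 3.67, 3.28 and 3.13 in null samples, the same split of the WT arrays as for Aurka.

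The last 3 members are Mki67, the proliferation antigen Ki-67, Top2a, the topoisomerase that untangles sister chromatids, and Foxm1, a transcription factor for G2 and M genes. Their median log2 fold change was -0.35 (range -0.49 to -0.32). Mki67 was at 4.14, 4.55, 3.30 and 3.52 in WT and at 3.47, 3.77, 3.57 and 3.30 in null samples, with a log2 fold change of -0.35 ± 0.26. Null replicates 2 and 3 were above WT replicates 3 and 4. Top2a was at -0.14, 0.30, -0.49 and -1.32 in WT and at -0.23, -0.94, -1.36 and -1.06 in null samples, with -0.49 ± 0.36. Null replicate 1 was above WT replicates 3 and 4, and Top2a had a fold change of 0.14 on slide 1. Foxm1 was at -0.17, -0.01, -1.09 and -1.17 in WT and at -0.35, -0.85, -1.17 and -1.37 in null samples, with -0.32 ± 0.33.

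More than 1 probe was present for 15 members. Of the 57 probes, 51 were well above background on every array, 4 on some arrays and 2, the second probes of Cdk1 and Kif11, on none. Of the 55 probes that could be tested on their own, 54 had a negative fold change, the exception being the second Bub1 probe. The 3 Ccnb1 probes had log2 fold changes of -0.65, -0.76 and -0.60, and the 3 Cenpe probes had -0.57, -0.90 and -1.27. The 4 probes found on some arrays were well above background on 4 WT arrays and on fewer null arrays. The null arrays were 1 for Ect2, 2 for Anln, 2 for Cenpe (the probe with -1.27) and 3 for Cdc25c. These 4 could pass the filter through the WT arrays alone, so their negative values are no support for the direction. Over all probes tested on their own the median log2 fold change was -0.0008. Probes of 1 gene share their samples and are not replicates.

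Mitosis genes outside the 40 were also more often negative than positive. Of 137 such genes listed from textbook roles, 127 were on the array and tested, and limma called 0 of them at 5% false discovery rate. Their median log2 fold change was -0.24, and 96 (75.6%) were negative, against 48.6% of all genes. At an unadjusted p under 0.05 there were 8 lower and 0 higher, against 2.16% and 4.2% of all genes. The median was -0.08 without WT replicate 2 (81 negative) and -0.14 without null replicate 1 (88 negative). It was -0.09 with array weights (78 negative) and -0.27 with quantile normalization (107 negative). The 34 further kinetochore genes had a median of -0.28 (30 negative), the 26 spindle and motor genes -0.34 (22 negative), the 21 mitotic entry genes -0.24 (16 negative) and the 13 condensin and cohesin genes -0.24 (11 negative). The 8 further cytokinesis genes had -0.21 (5 negative), and the 25 further checkpoint and anaphase-promoting complex genes had 0.02 (12 negative), which was -0.03 with normexp and -0.16 with quantile normalization. None of these lists was tested as a set.

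Within each of these lists, the genes with the smallest p included the following. Sgo2a, which protects centromeric cohesion, stood at -0.90 ± 0.35 (log2 fold change and SE), and Mad2l1, a checkpoint effector, had -0.63 ± 0.33. Ska3, a kinetochore-microtubule coupler, had -0.68 ± 0.32. Plk4, the kinase of centriole duplication, had -0.79 ± 0.33, and Bora, an activator of Aurora A and Plk1, had -0.57 ± 0.29. Aspm, a spindle-pole protein, had -0.75 ± 0.30, Ckap2l had -0.85 ± 0.33, Arhgap11a had -0.72 ± 0.30, Smc2, a condensin core subunit, had -0.94 ± 0.41 and Ncapd3, a condensin II subunit, had -0.34 ± 0.23. Citron kinase, Cit, which acts late in cytokinesis, had 0.60 ± 0.31. Limma adjusted p-values of these 11 genes ran from 0.769 to 0.803.

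DNA replication and S phase genes were near 0 on the median. Of 38 listed, 37 were tested, of which 20 were positive and 17 negative, with a median log2 fold change of 0.01. Limma called 0 of them, with 0 at an unadjusted p under 0.05. The median was -0.05 with normexp, -0.09 with quantile normalization, 0.18 without WT replicate 2 and -0.17 without WT replicate 3. The smallest p-values were those of Gins4, a helicase subunit (-0.23 ± 0.16), and Ccne2, cyclin E2 (-0.70 ± 0.49), both with a limma adjusted p of 0.803. The replication genes nonetheless split the WT arrays as the mitosis genes did. Their mean relative to WT stood at 0.40, 0.55, -0.49 and -0.46 in WT replicates 1 to 4, and at -0.19, 0.27, -0.04 and -0.24 in null replicates. Mitosis mean minus replication mean was then -0.05, 0.07, 0.08 and -0.10 in the WT arrays and -0.30, -0.60, -0.70 and -0.31 in the null arrays. The groups did not overlap on this measure, whose mean was -0.48 ± 0.21 (SD, n = 4) in null samples, with an SD of 0.09 in WT. It was chosen after the values were seen, so no test is given.

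With the replication mean of each array as a covariate, also added after the data were seen, all 40 members had a negative coefficient, with a median of -0.47 and a median standard error of 0.22. In that fit 18 of 40 (45%) were lower at an unadjusted p under 0.05, against 2.54% of all genes. Limma called 0 members in it, and the smallest adjusted p was 0.484. Without the covariate the median standard error was 0.32 and the count 6. The count of 18 cannot serve as a test, since the covariate was picked with its split of the WT arrays known. The members share that split and vary together, so they are not 40 separate results.

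**Figure D5:**
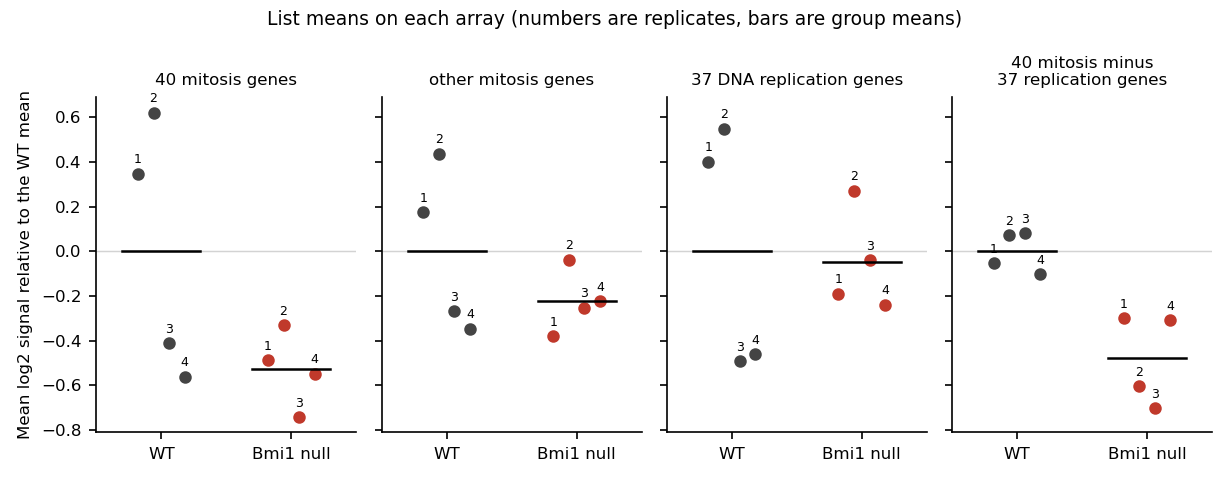
Mean on each array of the 40 mitosis genes, the 127 other mitosis genes and the 37 replication genes, and the first minus the third, in log2 units relative to each gene's WT mean (y axis). Each point is 1 array, numbered by replicate, and bars are group means. The mitosis and replication means fall into a high pair and a low pair in WT, and in all 4 null arrays the mitosis mean lies below the replication mean.

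Markers of the cell types that the tissue could hold also differed between the groups, and their part in the mitosis values was not tested. Of 11 maturation ameloblast markers, all 11 were positive (median log2 fold change 1.60). At an unadjusted p under 0.05, 9 of the 11 were higher, against 4.2% of all genes. Their summed level, on a linear scale in units of the array's 75th percentile, ran from 103 to 144 in WT and from 175 to 383 in null arrays. By the list's mean relative to WT, WT replicates 1 to 4 stood at 0.31, -0.54, 0.65 and -0.42. Null replicate 2 stood within that range at 0.02, and the other null arrays at 1.77 to 2.54. The mitosis mean of null replicate 2, -0.33, was the highest of the null arrays and lay above WT replicates 3 and 4. In WT, replicates 1 (mitosis mean 0.35) and 4 (-0.56) had the same sign on both lists. WT replicates 2 (0.62) and 3 (-0.41) had opposite signs. Of 7 secretory ameloblast markers 6 were positive (median 0.17), with summed levels of 226 to 318 in WT and 388 to 513 in null arrays. With quantile normalization their median was 0.03, with 4 positive and 3 negative. All 9 general epithelial markers were positive, with a median of 0.61 and summed levels of 212 to 314 and 358 to 606. The 7 markers of progenitor and transit-amplifying epithelium had a median of 0.25 and overlapping summed levels of 8.08 to 15.9 in WT and 9.29 to 15.2 in null arrays. That median rested on null replicate 1, which stood at 0.99 against -0.01, 0.12 and -0.07 in the other null arrays; without it the median was -0.03, with 5 of 7 negative, and with array weights 4 of 7 were negative. Leaving out 1 array gave medians of 1.14 to 1.95 for maturation, 0.11 to 0.34 for secretory and 0.47 to 0.76 for general epithelial markers.

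Among other cell types, 11 of 13 immune markers were negative (median -0.42, summed 17.1 to 34.4 in WT and 18.1 to 24.4 in null), as were 10 of 11 endothelial markers (median -0.29, summed 33.0 to 54.1 and 27.5 to 43.0). Without WT replicate 4 these medians were -0.22 and -0.19, and the immune median was -0.27 without WT replicate 3 and also -0.27 without null replicate 4. The endothelial median was -0.60 on slide 1 and -0.06 on slide 2, and the immune median -0.58 and -0.29. Of 10 neural and muscle markers 8 were negative (median -0.53, summed 5.01 to 8.599 and 4.41 to 8.42), but the median was -1.35 on slide 1 and 0.14 on slide 2, and -0.27 without null replicate 1. Of 13 mesenchymal markers 8 were positive (median 0.30, or -0.13 with quantile normalization, summed 519 to 758 and 480 to 1074), and all 13 were above background on every array; their median was 0.01 without null replicate 2, 0.13 without WT replicate 3 and -0.09 on slide 1. Only 5 of 12 erythroid markers were tested (3 positive, median 0.30, summed 5.43 to 12.1 and 5.79 to 29.1), with a median of -0.11 without null replicate 2, 0.05 without WT replicate 3 and 0.61 without null replicate 4. The erythroid genes Epb42 and Rhag and the endothelial gene Erg were among the markers that were above background on no array. No marker passed 5% false discovery rate in limma, where 0.0492% of all genes did. At an unadjusted p under 0.05 there were 20 higher and 6 lower over the tested markers of all these lists. Of all genes, 4.2% were higher and 2.16% lower at that threshold.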

How the data were processed

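Total RNA of 8 samples was measured on single-colour Agilent arrays, and groups came from the genotype labels. Per the file headers, the authors used a G2505C scanner and Feature Extraction 10.5.1.1 (GE1-v5_95_Feb07 settings), with mm9 named as the build of the grid. The deposited processed signal is a linear intensity, corrected for background by the authors' software within each array and not between arrays; 2 further deposited intensities, of the spot's median and of its surroundings, are uncorrected, and per-spot indicators mark signals well above background. The authors' deposited value table holds log2 values with no statement of their centring, and all 8 of its columns correlated best with their own scanner file.

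Control spots (1417) were left out. Of 41174 noncontrol probes, 24844 took a current symbol from a RefSeq gene table through their accession, and 16330 took none. Signals were set to log2 minus the array's 75th percentile. Genes well above background on at least 4 of 8 arrays entered, each through its brightest probe. Null was compared with WT in limma 3.58.1 (R 4.3.3; lmFit, eBayes with trend, two-sided, Benjamini-Hochberg over all 22345 genes, 5%). On simulated data, changes of 1, 1.5, 2 and 3 log2 units in 50 of 22298 genes each were called in 34%, 46%, 70% and 94%, and 6 unchanged genes were called over the whole simulation. The simulated noise was independent between genes and had the same SD in both groups, unlike the members' values. Changes under 1 were not simulated, so these rates do not say what could be detected for the members. Per-array values are given for the 12 members with the smallest p and for members whose probes differ in sign; for further members they were chosen after values were seen. At most 2 genes per pathway or replication list, those with the smallest p, are named. Some genes that this rule names are not reported here. The members and lists were chosen with earlier results of these data known. Alternatives were normexp (on median signals, offset 50), quantile and detected-probe scaling, the filter, the probe rule, no trend, array weights, slide as a block, a 10% threshold and leaving out each array. Chosen after seeing the data were the authors' value table, each slide alone and the replication covariate. The number of arrays limits precision. The title number of WT replicate 1 differs from that of its file, which was taken as the labels link it.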

Additional observations from a re-analysis of the deposited data

Results flagged for a closer look

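Within each genotype, the highest and the lowest array of every member were set against Dixon's 95% criterion, which by chance marks about 1 in 20 groups. Of 80 such groups of 4 arrays, 2 were marked, both for WT replicate 4 as the lowest WT array. Dlgap5, the spindle protein HURP, stood at -4.26 there, against -3.48 in the nearest WT array. Anln, anillin, stood at -2.96 there, against -2.28 in the nearest.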

How the results depend on the processing

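In every alternative 0 members and 0 other mitosis genes passed 5% false discovery rate in limma, and the smallest adjusted p of a member was 0.159. The count of all genes past it, 11 in the comparison reported, was 5 with normexp, 23 with array weights, 1 on slide 1 alone, 19 on slide 2 alone and 0 with a filter on all 8 arrays, where 1264 genes had an unadjusted p under 0.05. Leaving out 1 array gave 9 to 14. Of the calls, 81.8% were higher in null samples, against 69.2% with quantile normalization and 69.6% with array weights. The members' median log2 fold change ran from -0.71 to -0.29 when 1 array was left out, with 39 to 40 negative. It was -0.31 on slide 1 and -0.72 on slide 2, -0.41 with normexp, -0.37 with array weights, -0.52 with the authors' value table and -0.54 to -0.47 in the others. The median of all genes was 0.17 with normexp and 0.13 with no filter, against 0.01. Of 880 member values under 22 alternatives, 867 kept their direction and 13 turned it. With normexp these were Ttk (0.079), Dlgap5 (0.0466), Hmmr (0.21) and Anln (0.0934). On slide 1 alone they were Cdc25c (0.17), Racgap1 (0.011), Top2a (0.14), Plk1 (0.0879), Cdc20 (0.00222), Bub1b (0.0803), Foxm1 (0.0717) and Ube2c (0.16). Without WT replicate 2 it was Melk (0.00229), which ran from -0.39 to that value when 1 array was left out. The causes were not tested; each slide alone holds only 2 arrays a group. Slide as a block left the members' median at -0.51, with 0 called. No paired analysis was possible because the replicate numbers were given in accession order and pair no samples.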
